A study of Rattus norvegicus with 6 samples.

Results

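Matrix metalloproteinases are zinc-dependent enzymes that cut collagen and other proteins of the extracellular matrix, and tissue inhibitors of metalloproteinases, of which Timp1 is one, bind and block them. Here 6 matrix metalloproteinase genes and Timp1 were followed in cultures labelled as mesenchymal stem cells from rat bone marrow, adherent cells able to become bone-forming cells, when the calcium-binding protein S100A16 was targeted with an siRNA. The 7 genes were chosen by their rat Ensembl gene identifiers and are 7 of the 30560 genes in the deposited table: Mmp2 (ENSRNOG00000016695), Mmp3 (ENSRNOG00000032626), Mmp9 (ENSRNOG00000017539), Mmp12 (ENSRNOG00000030187), Mmp13 (ENSRNOG00000008478), Mmp14 (ENSRNOG00000010947) and Timp1 (ENSRNOG00000010208). The table pairs no identifier with a name, so these names rest on the identifiers as assigned to the genes for this work. The gene lengths implied by the values were searched among whole numbers only, and ran from 873 nt for Timp1 to 3022 nt for Mmp2. The only check made was that each length was shorter than the genomic span of the RefSeq gene of that symbol. That check is weak, since many genes would pass it, and for Mmp12 it rests on 1 read.

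All 6 samples came from cultured marrow cells at passages 3 to 5 under osteogenic differentiation, and the labels give the genotype as Control for siNC and S100A16 silenced for siS100A16. The siNC group (n = 3) received control siRNA and the siS100A16 group (n = 3) an siRNA against S100A16, a small RNA duplex meant to lower the matching transcript without altering the gene. Age, strain, time after transfection and pooling of animals are not given in the labels. Nothing in them says that the samples of a group came from separate cultures or animals, so the p-values reflect variation among these particular samples, and that variation may be technical. The comparison addresses which genes change when S100A16 is silenced during osteogenic differentiation.

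Values are FPKM, read numbers scaled to the length of the gene and to the library's total. The reads behind them could be worked out as whole numbers, up to a factor that a gene's reads and length, or all library totals, may share. Totals of reads counted to genes ran from 7135826 to 8059327 in siNC and from 5387539 to 6937001 in siS100A16. Genes above 0 numbered 17895 to 18038 in the siNC libraries and 15778 to 16609 in the siS100A16 libraries. The median SD of a tested gene on the log2(FPKM + 1) scale was 0.17 within siNC and 0.37 within siS100A16. The main fit below takes a common spread for both groups. On the first principal component of all tested genes, which carried 49.8% of the variance, the siNC libraries lay between -41.2 and -34.2, and siS100A16 replicates 1, 2 and 3 at 60.6, 8.95 and 44.5. Replicate 2 of siS100A16 thus stood apart from the other siS100A16 libraries, toward siNC, and the fold changes and ratios of the members tested are also given without it. Neither S100a16 itself nor the markers of the labelled cell type were assessed. The files and the reference pair no identifier with a name, and names were assigned for this work only to the members.

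Mmp2 (gelatinase A) degrades denatured collagen and is released by mesenchymal cells as an inactive precursor. Mmp14 (membrane type 1 matrix metalloproteinase) sits in the cell membrane, cuts fibrillar collagen and, with the inhibitor Timp2, activates that precursor. Mmp3 (stromelysin-1) cuts proteoglycans and other matrix proteins and activates collagenase precursors, and its promoter in human and rodent cells is a classic target of inflammatory cytokines acting through the transcription factor AP-1. Mmp13 (collagenase-3) is the main interstitial collagenase of rodent bone, Mmp9 (gelatinase B) is abundant in osteoclasts, and Mmp12 (macrophage elastase) is made mainly by macrophages. Timp1 inhibits most secreted matrix metalloproteinases but is a poor inhibitor of Mmp14.

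In the RefSeq table of the rat assembly GRCr8, Mmp13, Mmp12 and Mmp3 lie in this order in 1 cluster on chromosome 8, where 10 Mmp genes are found among 12 consecutive genes, whereas Mmp9, Mmp14, Mmp2 and Timp1 lie on chromosomes 3, 15, 19 and X. The 250 bases before the RefSeq start are shown for Mmp3, the member that rose, for Mmp13 of the same cluster, and for Timp1. They are written as DNA 5′ to 3′ on the gene's strand. Capitals mark 3 motifs searched on both strands: the AP-1 motif TGANTCA, the ETS factor motif AGGAAG and the TATA box motif TATAAA. No match overlapped another.
Mmp3 (GRCr8, chr8:12925031-12925280, plus strand): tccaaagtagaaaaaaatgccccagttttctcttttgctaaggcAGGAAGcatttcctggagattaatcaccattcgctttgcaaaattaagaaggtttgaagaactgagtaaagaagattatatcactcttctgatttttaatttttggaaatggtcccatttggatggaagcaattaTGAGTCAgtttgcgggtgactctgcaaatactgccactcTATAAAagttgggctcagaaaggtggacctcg
Mmp13 (GRCr8, chr8:12782579-12782828, plus strand): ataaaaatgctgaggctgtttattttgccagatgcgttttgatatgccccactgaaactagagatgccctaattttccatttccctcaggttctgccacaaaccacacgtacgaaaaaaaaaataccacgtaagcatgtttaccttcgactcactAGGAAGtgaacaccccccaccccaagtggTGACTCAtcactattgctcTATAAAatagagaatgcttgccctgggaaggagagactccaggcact
Timp1 (GRCr8, chrX:3771123-3771372, minus strand): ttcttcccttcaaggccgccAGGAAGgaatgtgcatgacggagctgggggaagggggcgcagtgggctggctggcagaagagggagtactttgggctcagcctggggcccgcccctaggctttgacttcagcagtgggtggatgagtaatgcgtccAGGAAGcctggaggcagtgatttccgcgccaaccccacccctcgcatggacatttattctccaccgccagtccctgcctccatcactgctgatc

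The Mmp3 window holds TGAGTCA from 71 to 65 bases before the start and TATAAA from 32 to 27 bases before it. The Mmp13 window holds TGACTCA from 66 to 60 bases and TATAAA from 47 to 42 bases before the start. The Mmp12 window, not shown, also holds 1 AP-1 and 1 TATA match, so the 3 cluster members share both motifs. No window was available for Mmp2, Mmp9 and Mmp14, so their promoters were not searched. The Timp1 window holds 2 AGGAAG matches and neither of the other motifs, and its GC content was 61.2%, against 38.8% for Mmp3, 44.4% for Mmp13 and a median of 51.2% over all windows. Among 33469 RefSeq windows of the same length, 6.34% hold the AP-1 motif, 29.5% the ETS motif and 12.9% the TATA box motif. These matches describe letters only, and binding was not measured.

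Timp1, Mmp2 and Mmp14 were among the most abundant transcripts in control cells, Mmp3 was intermediate, and Mmp13, Mmp9 and Mmp12 were near the limit of detection. By mean FPKM in siNC, a level per gene length, the order was Timp1 at 1014 ± 34.3, Mmp2 at 504 ± 18.3, Mmp14 at 282 ± 30.0, Mmp3 at 30.6 ± 5.44, Mmp13 at 0.918 ± 0.581, Mmp9 at 0.474 ± 0.101 and Mmp12 at 0.0313 ± 0.0542 (SD, n = 3 each). Neighbours in this order did not overlap across the siNC samples, except Mmp13 and Mmp9. In siS100A16 the means were 1042 ± 144 for Timp1, 432 ± 121 for Mmp2, 147 ± 61.5 for Mmp14, 141 ± 49.2 for Mmp3, 2.12 ± 1.42 for Mmp13, 0.650 ± 0.365 for Mmp9 and 0 for Mmp12 (SD, n = 3 each). There the values of Mmp14 and Mmp3 overlapped, as did those of Mmp13 and Mmp9.

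**Figure D1:**
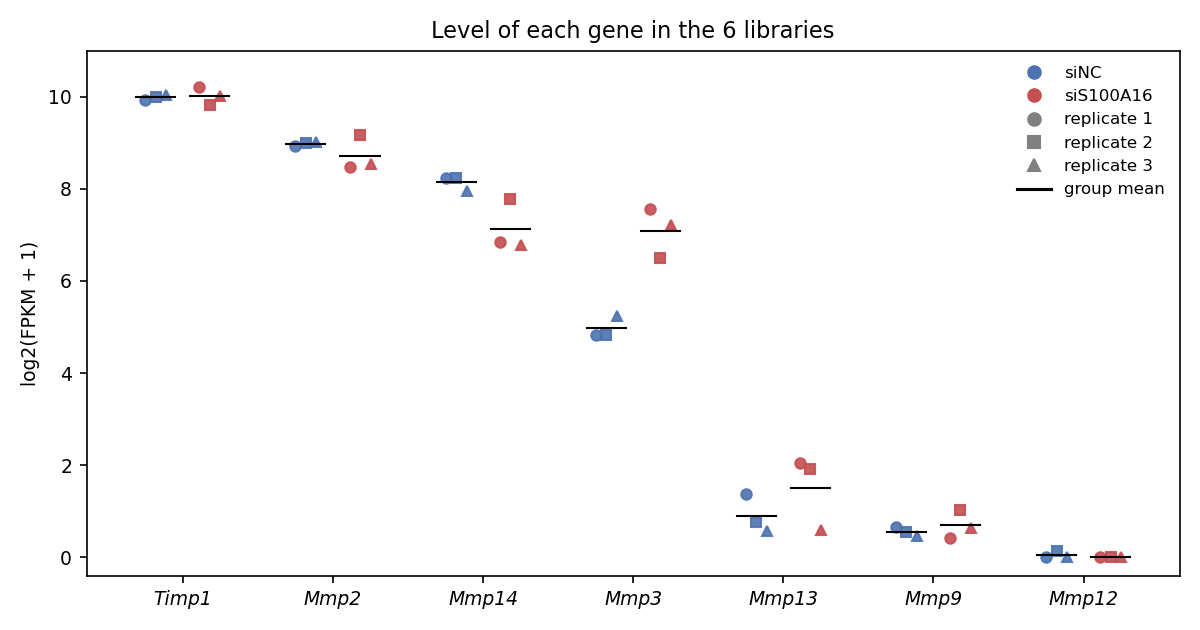
Level of each of the 7 genes as log2(FPKM + 1) in every library, with siNC in blue, siS100A16 in red, marker shapes for replicates and black lines for group means. The siNC and siS100A16 points are apart for Mmp3 (higher in siS100A16) and Mmp14 (lower), and overlap for the other 5 genes. The share of all tested genes with groups apart is not given here, so nothing is read from this count.

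Of the 7 genes, 5 had a mean of at least 1 FPKM over the 6 samples and entered the test, and 2, Mmp9 and Mmp12, did not. Mmp13 entered, at a mean of 1.52 FPKM, only through siS100A16, where its mean was 2.12 FPKM against 0.918 in siNC. After S100A16 siRNA 1 of the 5, Mmp3, rose and 1, Mmp14, fell, while Mmp2, Mmp13 and Timp1 did not pass the test (limma on log2(FPKM + 1), adjusted p under 0.05 over all genes tested). Across all 12336 tested genes 20.7% were called, 16.4% higher and 4.27% lower. The rise and the fall among the 5 members are 1 gene each, and nothing about the 5 as a group is read from these counts. Among the 5 members the middle log2 fold change, 0.03, is that of Timp1 alone. Since Mmp13 entered only through siS100A16, where it was higher, this middle value is not compared with other genes. The 12336 tested genes together had a median of 0.17, a shift toward higher levels in siS100A16. That shift depended on scaling: the median over all genes became -0.02 with median-of-ratios scaling, where 928 genes were higher and 821 lower, against 2029 higher and 527 lower as deposited. Without siS100A16 replicate 2, 3216 genes were called in place of 2556.

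Mmp3 was higher in every siS100A16 library than in any siNC library. Its level was 27.4, 27.5 and 36.9 FPKM in siNC replicates 1 to 3, from 378, 359 and 543 reads. In siS100A16 replicates 1 to 3 it was 187, 89.2 and 147 FPKM, from 2371, 1040 and 1446 reads. The lowest siS100A16 library, replicate 2, is the one that stood nearest to siNC on the first principal component, and even there the level was above the highest siNC value. In the fit the log2 difference for Mmp3 was 2.12 (SE 0.27, adjusted p = 0.00461 by limma), a 4.34-fold higher level with a 95% interval from 2.82 to 6.69. Relative to the median of all tested genes the log2 change was 1.94. Only 33 of the 12336 tested genes, Mmp3 included, had a log2 fold change this large or larger. Rises were common at its level: of 2661 genes with a mean from 20 to 100 FPKM, 34.9% were called higher and their median log2 fold change was 0.43. Without siS100A16 replicate 2 the log2 fold change of Mmp3 was 2.41 (limma adjusted p = 0.00377). Under all 16 alternative settings Mmp3 was higher and passed the test, with log2 fold changes from 1.68 to 2.41 and adjusted p from 0.00219 to 0.0357. Mmp3 has a close relative in the same cluster, Mmp10 (stromelysin-2), and how reads matching both were counted is not given in the sources used here.

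Mmp14, the membrane-bound activator of Mmp2, was lower in every siS100A16 library than in any siNC library. Its level was 299, 299.8 and 247 FPKM in siNC replicates 1 to 3, and 114, 218 and 109 FPKM in siS100A16 replicates 1 to 3. Replicate 2 of siS100A16 again lay nearest to siNC. These values came from 4274 to 4847 reads in siNC and from 1253 to 2978 in siS100A16. The fitted log2 difference was -1.01 (SE 0.26, adjusted p = 0.0301 by limma), so that the level in siNC was 2.01-fold higher, with a 95% interval from 1.33 to 3.05. Of 768 genes with a mean from 100 to 1000 FPKM, 6.64% were called lower and 53.1% higher, so falls were a minority at this level but made up a larger share than the 4.27% over all tested genes. Of all tested genes 625, Mmp14 included, had a log2 fold change this low or lower.

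The Mmp14 fall was less firmly called than the Mmp3 rise. Its direction held in all 16 alternatives, with log2 fold changes from -1.44 to -0.83, but the adjusted p rose above 0.05 in 7 of them. Without siNC replicate 1, 2 or 3 the limma adjusted p was 0.0972, 0.115 and 0.0637, and without siS100A16 replicate 1 or 3 it was 0.0787 and 0.0824. Without siS100A16 replicate 2 it fell to 0.00612 at a log2 fold change of -1.33. With no filter on low genes it was 0.0796, and with a variance prior without trend 0.0631.

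Mmp2, the gelatinase that Mmp14 activates, was not called. Its level was 484, 509 and 519 FPKM in siNC replicates 1 to 3, and 353, 572 and 370.4 FPKM in siS100A16 replicates 1 to 3. The siS100A16 values lay on both sides of siNC, with replicate 2 above and the other 2 below all siNC samples. For Mmp2 the fit gave a log2 difference of -0.26 (SE 0.19, adjusted p = 0.373 by limma), with a 95% interval from -0.69 to 0.18. Without siS100A16 replicate 2 the fall passed the test (log2 fold change -0.48, limma adjusted p = 0.026), the only one of the 16 alternatives in which it did. Its size also depended on scaling. The log2 fold change of Mmp2 was -0.49 with median of ratios, -0.65 with quantile normalization and -0.51 with limma voom on worked-out reads. Their limma adjusted p was 0.104, 0.0885 and 0.0738, while each 95% interval lay below 0. With TPM it was -0.30 (limma adjusted p = 0.354). Replicates of siS100A16 varied much more than those of siNC, with coefficients of variation of 28.1% and 3.63%.

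Timp1, the inhibitor, had similar levels in both groups in the values as deposited. It was at 976, 1021 and 1044 FPKM in siNC replicates 1 to 3 and at 1188, 899 and 1039.7 FPKM in siS100A16 replicates 1 to 3. The siNC values lay within the range of the siS100A16 values. The estimated log2 difference was 0.03 (SE 0.13, adjusted p = 0.892 by limma), with a 95% interval from -0.27 to 0.33. At the deposited scaling, folds between 0.829 and 1.26 are thus compatible with these samples. Without siS100A16 replicate 2 it was 0.13 (limma adjusted p = 0.423). Its sign depended on scaling, with -0.20 under median of ratios and -0.31 under quantile normalization, neither past the threshold. The 95% interval ran from -0.52 to 0.12 under median of ratios. Under quantile normalization it ran from -0.54 to -0.08, below 0, and the fold was 0.809. Of all tested genes outside the 7, those whose log2(FPKM + 1) followed Timp1 most closely over the 6 libraries were ENSRNOG00000014431 (Pearson r = 0.991) and ENSRNOG00000014642 (r = 0.985), both low genes under 5 FPKM in every library. With 6 libraries, 99 genes reached an r of at least 0.9, so this likeness is a description only.

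Mmp13, the collagenase, rested on few reads. It had 31, 13 and 10 reads in siNC replicates 1 to 3, or 1.58, 0.700 and 0.477 FPKM. In siS100A16 replicates 1 to 3 it had 56, 46 and 7 reads, or 3.10, 2.77 and 0.499 FPKM. Replicates 1 and 2 of siS100A16 were above all siNC samples, while replicate 3 was among the lowest values. The estimate for Mmp13 was a log2 difference of 0.61 (SE 0.47, adjusted p = 0.394 by limma), with a 95% interval from -0.47 to 1.70. Its size depended on the value added before the logarithm. With 0.1 added in place of 1 it was 0.94 (limma adjusted p = 0.456), with a 95% interval from -0.95 to 2.83. With 1 added, it was 0.41 without siS100A16 replicate 2 (limma adjusted p = 0.595) and 1.08 without replicate 3 (limma adjusted p = 0.0678). For the 7 reads of replicate 3 the 95% exact Poisson interval was 0.201 to 1.03 FPKM, and for the 46 reads of replicate 2 it was 2.03 to 3.69 FPKM. The intervals do not overlap; they cover the error of counting alone, because reads copied by amplification are not separate molecules.

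Mmp9 and Mmp12 were barely detected. Mmp9 had 13, 10 and 9 reads in siNC replicates 1 to 3 and 7, 20 and 9 in siS100A16 replicates 1 to 3, or 0.375 to 0.577 and 0.339 to 1.05 FPKM. The groups overlapped, and a difference was not detectable at this depth. With the filter removed, its log2 fold change was 0.14 (limma adjusted p = 0.722). Mmp12 had 1 read in siNC replicate 2 and 0 reads in the other 5 libraries. A count of 0 allows up to 3 reads, a one-sided 95% limit, which in the libraries listed at 0 is 0.249 to 0.373 FPKM. The upper ends of two-sided 95% exact Poisson intervals, as used for Mmp13, are 0.306 to 0.458 FPKM there. Mmp9 is typical of osteoclasts and Mmp12 of macrophages, but the share of such cells was not assessed.

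**Figure D2:**
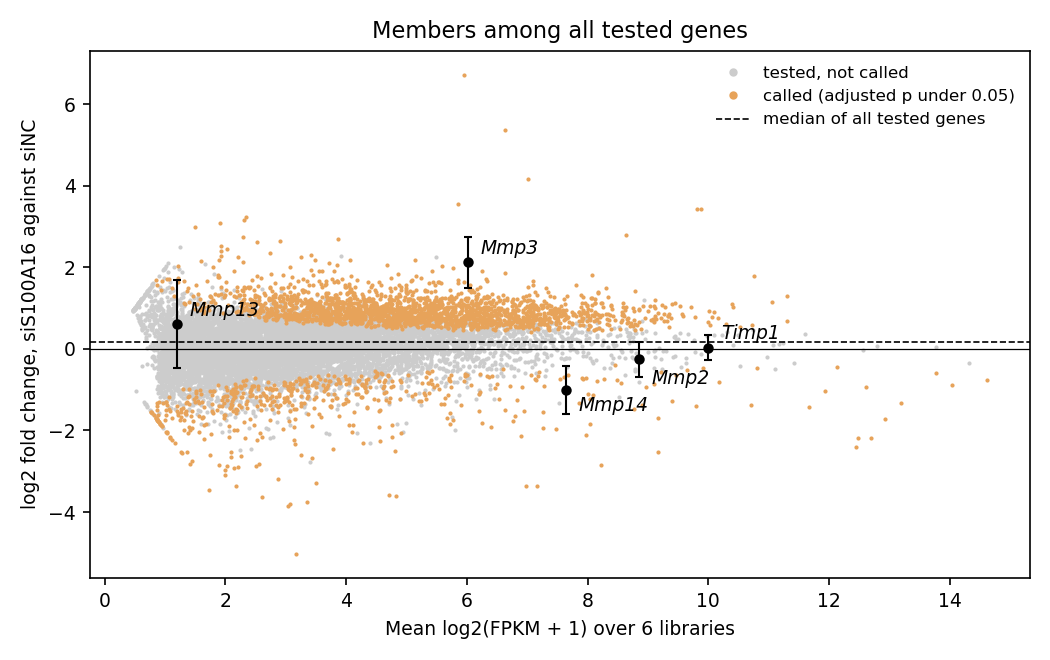
Log2 fold change between siS100A16 and siNC against mean log2(FPKM + 1) for the 12336 tested genes, with called genes in orange, the 5 tested members in black with 95% intervals, and the median of all genes as a dashed line. Mmp3 lies at 2.12 among the rises, Mmp14 at -1.01 among the falls, and the intervals of Mmp2, Mmp13 and Timp1 cross 0.

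The make-up of the summed matrix metalloproteinase level differed between the groups. Shares within a library do not depend on how libraries are scaled, but a share can move because another member moves, and in bulk samples fewer cells of a type and less RNA per cell cannot be told apart. Mmp3 made up 3.37%, 3.29% and 4.58% of the summed FPKM of the 6 metalloproteinases in siNC replicates 1 to 3, and 28.4%, 10.1% and 23.4% in siS100A16 replicates 1 to 3. Mmp14 made up 36.8%, 35.8% and 30.8% of the sum in the siNC replicates, against 17.3%, 24.7% and 17.3% in siS100A16. Both separated the groups, in opposite directions. Mmp2 remained the largest part in every library, with 59.5%, 60.7% and 64.6% in the siNC replicates against 53.7%, 64.8% and 59.1% in siS100A16, which overlapped. Mmp9, Mmp12 and Mmp13 together stayed under 1% in every library.

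**Figure D3:**
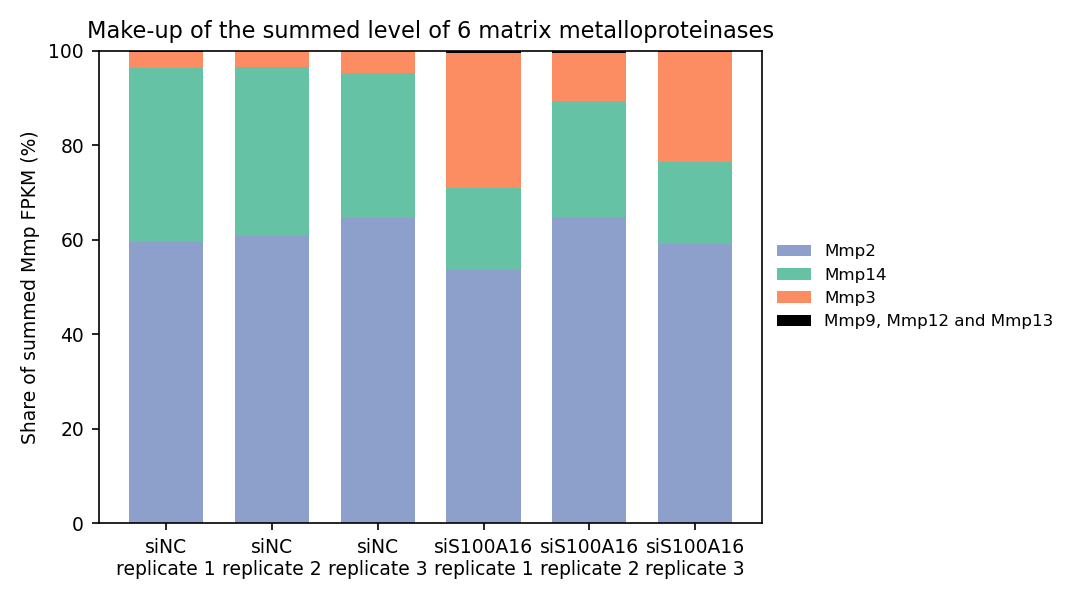
Share of each gene in the summed FPKM of the 6 matrix metalloproteinases, in percent, with 1 bar for each library. The Mmp3 part grows from at most 4.58% in siNC to at least 10.1% in siS100A16, the Mmp14 part is smaller in all 3 siS100A16 libraries, and siS100A16 replicate 2 is the least different from siNC.

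Mmp3 was above Mmp14 in 2 of the 3 siS100A16 libraries and below it in every siNC library. The ratio of Mmp3 to Mmp14 in FPKM was 0.0915, 0.0918 and 0.149 in siNC replicates 1 to 3 and 1.64, 0.410 and 1.35 in siS100A16 replicates 1 to 3. On the log2(FPKM + 1) scale the ratio was -3.17 ± 0.40 for the siNC group and -0.05 ± 1.08 for the siS100A16 group (SD, n = 3 each), a difference of 3.13, or 3.74 without siS100A16 replicate 2. This ratio was added after its members' values were seen. It sets the member that rose against the one that fell, so the separation of the groups follows from that choice and no test is given.

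With all 6 libraries, Mmp3 alone of the 5 metalloproteinases detected in every library had a ratio to Timp1 that separated the groups. The share of all genes with such a ratio apart was not worked out, so nothing is read from this count. Timp1 itself had a log2 fold change of 0.03, so the Mmp3 ratio largely repeats the Mmp3 log2 fold change of 2.12. For other members a separation depended on which library was left out. The ratios of Mmp14 and Mmp2 separated the groups without siS100A16 replicate 2. That of Mmp14 also did so without siNC replicate 3, and that of Mmp13 without siS100A16 replicate 3. Replicate 2 of siS100A16 was singled out from these same data, so no weight is placed on a separation without it. The ratio of Mmp3 to Timp1 was 0.0280, 0.0270 and 0.0353 in the siNC replicates, against 0.158, 0.0992 and 0.141 in siS100A16. On the log2(FPKM + 1) scale it was higher by 2.09 in siS100A16 (exact two-sided permutation p = 0.1, the smallest that 3 samples against 3 allow; 0.5 after Benjamini-Hochberg adjustment over 5 ratios). The ratio of Mmp14 to Timp1 was 0.306, 0.294 and 0.237 in the siNC replicates, against 0.0961, 0.242 and 0.104 in siS100A16. Replicate 2 of siS100A16 lay just inside the siNC range, and the log2 difference was -1.04 (exact two-sided permutation p = 0.2). Without that library the log2 differences were 2.28 for Mmp3, -1.46 for Mmp14 and -0.61 for Mmp2 (exact two-sided permutation p = 0.2 each, the smallest that design allows).

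The ratio of Mmp2 to Timp1 was nearly constant in control cells, at 0.495, 0.498 and 0.497. In siS100A16 it was 0.298, 0.636 and 0.356, with values on both sides of siNC, and the log2 difference was -0.29 (exact two-sided permutation p = 0.4). The summed level of the 6 metalloproteinases per Timp1 was 0.832, 0.820 and 0.771 in the siNC replicates against 0.554, 0.981 and 0.603 in siS100A16, which also overlapped. For Mmp13 and Mmp9 the log2 differences from Timp1 were 0.58 and 0.11 (exact two-sided permutation p = 0.3 and 0.8), and 0.28 and -0.16 without siS100A16 replicate 2. In all of these ratios the 3 siS100A16 libraries were farther apart than the 3 siNC libraries.

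**Figure D4:**
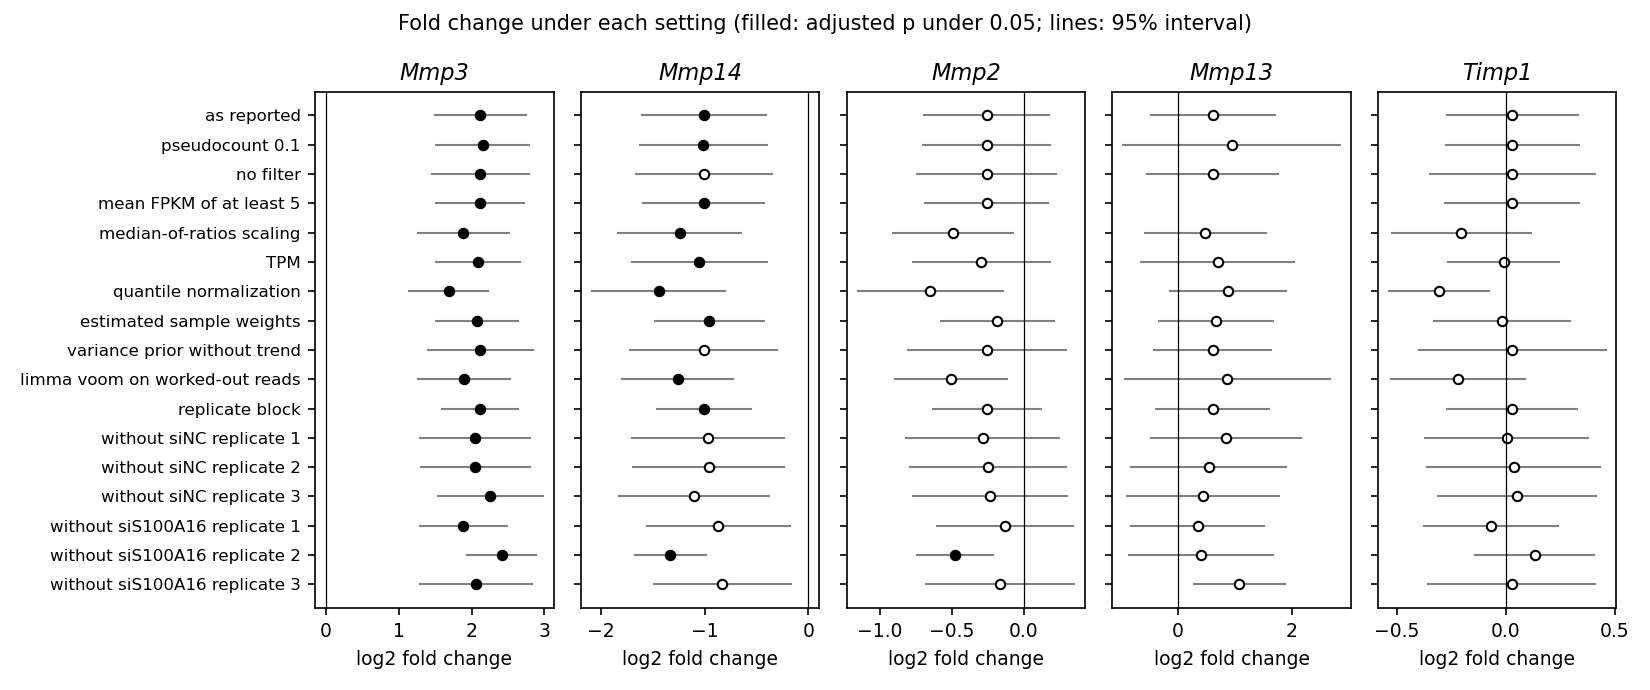
Log2 fold change of the 5 tested genes with 95% intervals as reported and under each alternative setting, filled where the adjusted p was under 0.05. Mmp3 is filled throughout, Mmp14 is filled in 10 of its 17 fits, Mmp2 only without siS100A16 replicate 2, and Mmp13 and Timp1 never.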

How the data were processed

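RNA sequencing of 3 siNC and 3 siS100A16 samples was deposited by the authors as 1 table of FPKM values, 30560 genes by 6 columns. The submitters' processing notes list HISAT2 2.1.0 and DESeq2 1.14.1 without saying what each did; they also name a mouse build, while the identifiers are rat. Which counter, annotation release and filters were used is not stated in these sources. Control columns were taken as siNC and the columns of the other arm as siS100A16, by number.

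The FPKM steps gave whole reads, gene lengths and library totals, up to a whole factor that a gene's length may share with its reads. limma 3.58.1 (R 4.3.3) was fitted to log2(FPKM + 1) of 12336 genes whose mean FPKM reached 1, with a trended variance prior, group as the only term and Benjamini-Hochberg adjustment over all of them. The added 1 makes fold changes of low genes too small. The fitting code was tested on simulated data. Single ratios used exact permutation tests (scipy 1.17.1). Genes named are the 7 members, and the 2 genes most correlated with the most abundant of them. The members and lists were chosen with earlier results of these data known. Lists of other metalloproteinases, inhibitors, activators, substrates and cell type markers had 0 identifiers paired with a name, and were not tested.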

Additional observations from a re-analysis of the deposited data

How the results depend on the processing

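The settings tried were no filter, a filter at 5 FPKM, a pseudocount of 0.1, 3 scalings (median of ratios, TPM, quantile), sample weights, a prior without trend, limma voom on worked-out reads, a replicate block, 2 further thresholds for members, and each sample left out. Mmp3 passed the test in every one. The 2 members called became 1 (Mmp3) with no filter and with a prior without trend, where the Mmp14 log2 fold change was -1.01 in both (limma adjusted p 0.0796 and 0.0631); the former tests 22692 genes. Leaving out 1 sample gave 1 to 3 members called. The Timp1 log2 fold change, 0.03 as reported, turned to -0.20 with median of ratios, -0.0085 with TPM, -0.31 with quantile normalization, -0.015 with sample weights and -0.22 with voom, none past the threshold; the cause was not tested. The 2556 genes called became 1563 with quantile normalization, and 552 to 3216 with 1 sample left out. The split of higher and lower calls was 928 and 821 for median of ratios, 705 and 858 for quantile normalization and 890 and 1057 with voom.

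With 1 sample left out, log2 fold changes ran from 1.88 to 2.41 for Mmp3, -1.33 to -0.83 for Mmp14, -0.48 to -0.13 for Mmp2, 0.35 to 1.08 for Mmp13 and -0.068 (without siS100A16 replicate 1) to 0.13 for Timp1. The ratios to Timp1 ran from 1.95 to 2.28 for Mmp3, -1.46 to -0.80 for Mmp14, -0.61 to -0.06 for Mmp2, 0.28 to 1.05 for Mmp13 and -0.16 to 0.35 for Mmp9, which turned to -0.16 without siS100A16 replicate 2. Deviations of same-numbered samples correlated at -0.03, 0.05 and 0.04, so the numbers were not taken as pairs. With the replicate block 2246 genes and the same 2 members were called. The read depth leaves Mmp9, Mmp12 and Mmp13 with at most 56 reads in a library.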
